A study of Homo sapiens with 19 samples.

Results

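Of the 5736 regions called as OCT-2 peaks on chromosomes 1 to 22 and X in breast cancer cells with forced OCT-2 expression, 1146 (19.98%) lay outside every superenhancer of the same cells and more than 50 kb from the body of every protein-coding gene in RefSeq. These are called far peaks here. The other peaks fell into 3 classes: 904 overlapped a superenhancer, 2488 of the rest overlapped a protein-coding gene body, and 1198 were intergenic but within 50 kb of one. The far peaks were chosen by measured positions, the called coordinates of peaks and superenhancers set against genes, so their distances from genes and superenhancers are given as a description.

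The cells, 231Pa_Luc+OCT-2, derive from MDA-MB-231, a triple-negative breast cancer line, as a polyclonal population that stably carried luciferase and POU2F2, the gene of OCT-2. OCT-2 was precipitated from 2 replicate chromatin samples with 5 µg of antibody, and the 2 were merged into 1 deposited peak list. The superenhancers came from 2 H3K27ac replicates of the same cells, and a matching list came from 231Pa_Luc+GFP cells, which carried luciferase and GFP in place of POU2F2. No OCT-2 precipitation of the GFP cells was analysed here, so binding by the transgene product and by endogenous OCT-2 cannot be told apart. The lists give no score, read count or value per replicate, so the depth behind a peak is unknown, the spread between replicates cannot be given, and the intervals below cover counting error only.

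OCT-2 is a POU-domain transcription factor best known from B lymphocytes, where it binds the octamer motif in immunoglobulin promoters and enhancers. Gene deserts are long stretches without protein-coding genes. Some of them hold enhancers that act on a gene at their edge over long distances. Many hold long noncoding RNA (lncRNA) genes, whose transcripts do not encode proteins. A peak far from genes can belong to either setting, and the nearest gene on the chromosome need not be the one it acts on.

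Sequence was read for the 12 far peaks that overlapped a RefSeq promoter window (GRCh38.p14). Such a window runs from 250 bases before to 50 bases after a start given for a gene. At TRD-AS1 and LOC105378072 that start lay within the gene body and not at its outer edge. All 12 windows belonged to lncRNA genes. Shown here are the stretches shared by peak and window for 6 of them, chosen because they show the range from an exact octamer to a looser likeness near the middle of the peak. Capitals mark the 8 bases most like the octamer ATGCAAAT on either strand, the first from the 5′ end where several are equally like it, and each sequence reads 5′ to 3′ on the strand of the lncRNA. The positions are chr14:22432704-22432948 (minus strand) for TRD-AS1, chr15:70506040-70506178 (minus) for LINC02205, chr5:130337159-130337458 (plus) for LOC105379171, chr11:86193495-86193748 (minus) for LINC02695, chr6:108738075-108738311 (plus) for LOC107986629 and chr2:64228250-64228450 (plus) for LOC100507006.
TRD-AS1: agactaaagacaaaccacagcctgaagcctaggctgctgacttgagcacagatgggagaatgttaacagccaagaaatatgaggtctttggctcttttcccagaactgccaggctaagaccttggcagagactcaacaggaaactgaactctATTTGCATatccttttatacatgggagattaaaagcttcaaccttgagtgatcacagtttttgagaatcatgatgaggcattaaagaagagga
LINC02205: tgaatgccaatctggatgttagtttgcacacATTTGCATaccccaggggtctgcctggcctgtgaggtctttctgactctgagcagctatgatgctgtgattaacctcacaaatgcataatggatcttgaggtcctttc
LOC105379171: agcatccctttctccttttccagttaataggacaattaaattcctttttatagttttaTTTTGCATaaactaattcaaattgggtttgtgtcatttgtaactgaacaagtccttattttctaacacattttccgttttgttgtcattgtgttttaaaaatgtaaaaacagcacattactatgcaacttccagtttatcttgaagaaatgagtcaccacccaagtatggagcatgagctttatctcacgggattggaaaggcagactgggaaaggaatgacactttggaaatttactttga
LINC02695: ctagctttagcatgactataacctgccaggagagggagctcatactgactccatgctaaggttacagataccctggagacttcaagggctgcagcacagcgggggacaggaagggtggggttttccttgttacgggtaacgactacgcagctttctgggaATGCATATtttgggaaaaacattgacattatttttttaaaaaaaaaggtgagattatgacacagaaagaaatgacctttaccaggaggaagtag
LOC107986629: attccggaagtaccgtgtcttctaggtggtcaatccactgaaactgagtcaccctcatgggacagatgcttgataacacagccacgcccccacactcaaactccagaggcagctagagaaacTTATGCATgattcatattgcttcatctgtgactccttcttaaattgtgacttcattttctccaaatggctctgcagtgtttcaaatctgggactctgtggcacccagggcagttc
LOC100507006: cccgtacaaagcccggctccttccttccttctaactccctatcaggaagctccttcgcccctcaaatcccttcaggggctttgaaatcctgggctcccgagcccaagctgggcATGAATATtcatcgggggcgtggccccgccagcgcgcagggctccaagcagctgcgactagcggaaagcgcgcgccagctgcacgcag

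The exact octamer stood in 2 of the 12 stretches (16.7%, exact 95% interval 2.09 to 48.4%), those at TRD-AS1 and LINC02205. In both it lay close to the middle of the peak, at 8.5 bp for TRD-AS1 and 14.5 bp for LINC02205. LOC105379171 and LINC02695 held a match with 1 mismatch, and the marked ones lay 54.5 bp and 38.5 bp from the middle of the peak, which brought the count within 1 mismatch to 4 of 12 (33.3%). LOC105379171 held 3 such matches and LINC02695 held 1. The capitals at LOC107986629 and LOC100507006 differ from the octamer at 2 bases and lay 0.5 bp and 1.5 bp from the middle, and these stretches held 4 and 2 matches of that likeness. Both were chosen for printing with that nearness known. In the stretches not shown, the match picked in the same way also differed at 2 bases and lay 46.5 to 123.5 bp from the middle. How often promoter windows hold a match with 2 mismatches was not measured. The stretches had a median of 192.5 bases, shorter than the 300 bases of a window.

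For reference, ATGCAAAT was present on either strand in 1.77% of all 34961 promoter windows and in 1.97% of the 12829 lncRNA windows, and 17.002% of all windows held it within 1 mismatch. Peaks of the other classes that overlapped an lncRNA window held the exact octamer in 8 of 87 cases (9.20%, 4.05 to 17.3%), and those overlapping a protein-coding window in 56 of 326 (17.2%, 13.2 to 21.7%). With 12 far peaks, the interval of the exact octamer spans both of these shares and lies just above those of the promoter windows at large. Within 1 mismatch, the other classes had 23 of 87 (26.4%) at lncRNA windows and 104 of 326 (31.9%) at protein-coding windows. The interval of the far peaks within 1 mismatch, 9.92 to 65.1%, holds both of these shares and the 17.002% of all windows. A match is a description of these letters and not a measured binding site.

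Of 6 other motifs searched on both strands in the same 12 stretches, TGANTCA (AP-1) was present in 3, GGAATG (TEAD) in 2, TGTGGT (RUNX) in 2 and CCGGAAG (ETS) in 1, the last beside LOC107986629. TGTTTAC (forkhead) and the NF-kB motif were present in 0 of 12. The shares of all promoter windows holding them were 7.68% for AP-1, 14.0% for TEAD, 13.1% for RUNX, 10.3% for ETS, 3.42% for forkhead and 1.61% for NF-kB. In lncRNA windows alone they were 10.3%, 17.1%, 16.2%, 5.85%, 4.41% and 1.70% in the same order. Peaks of other classes at lncRNA windows held AP-1 in 19 of 87 cases (21.8%), within the interval of the 3 of 12 here (5.49 to 57.2%). AP-1 is the dimer of FOS and JUN family proteins, and TEAD proteins carry YAP and TAZ to DNA.

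The far peaks lay at a median of 162 kb from the nearest protein-coding gene, with the middle 50% between 88.7 and 319.7 kb. There were 800 over 100 kb away, 386 over 250 kb, 147 over 500 kb and 32 over 1000 kb. At the threshold, the peaks just inside lay 50.01 kb from CLIC5, a chloride intracellular channel family member, and 50.03 kb from NRN1, a neuritin gene. Those just outside lay 49.9 kb from CTAGE1 and 49.6 kb from SLC4A7, a sodium bicarbonate cotransporter.

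Far sequence made up 38.3% of the chromosome span and held 19.98% of the peaks. Its density was 0.989 peaks per Mb (exact Poisson 95% interval 0.932 to 1.05), or 1 peak per 1011 kb. Intergenic sequence within 50 kb of a gene held 2.04 per Mb (1.93 to 2.16), gene bodies 2.02 and superenhancers 17.9. The fall with distance was gradual and showed no step at 50 kb: 1.66 per Mb at 25 to 50 kb and 1.63 at 50 to 100 kb had overlapping intervals. Beyond that the density was 1.40 at 100 to 200 kb, 1.03 at 200 to 500 kb, 0.606 at 500 to 1000 kb and 0.154 (0.105 to 0.217) over 1000 kb from a gene. The last value rests on sequence that includes centromeres and assembly gaps. Without gaps of 5 Mb or more that hold no gene and no peak it was 0.304 (0.208 to 0.429), still below the interval at 500 to 1000 kb, which was then 0.515 to 0.748. Such gaps are chosen partly for holding no peak, so leaving them out, here and below, can raise a density but not lower it.

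**Figure D1:**
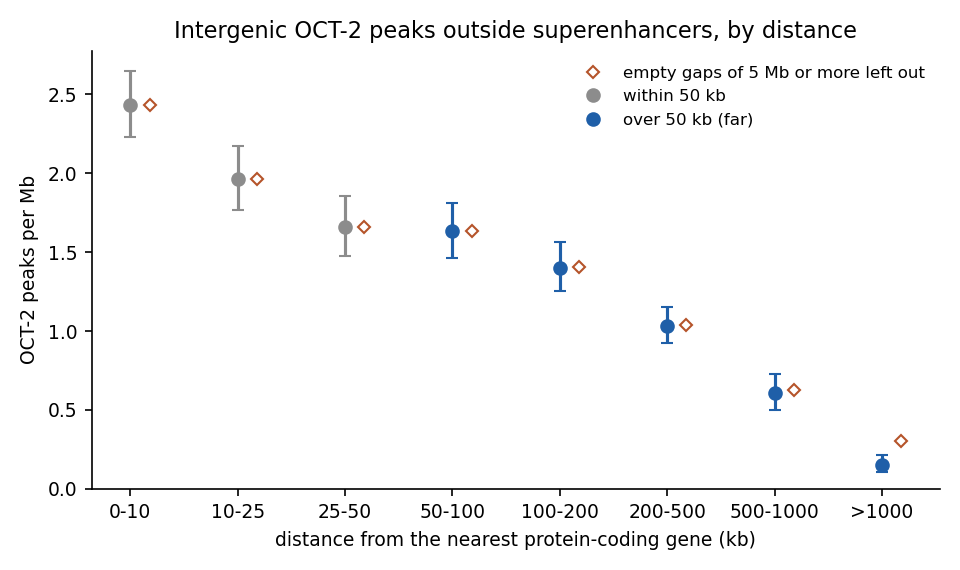
OCT-2 peaks per Mb (vertical axis) outside superenhancers and gene bodies in 8 ranges of distance in kb from the nearest protein-coding gene (horizontal axis); circles with exact Poisson 95% intervals, grey within 50 kb and blue beyond, open diamonds with long empty gaps left out. The density falls from 2.43 per Mb within 10 kb to 0.154 per Mb over 1000 kb away, or 0.304 without the gaps.

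Chromosomes differed widely in far peaks per Mb of far sequence. Chromosome 6 had the most, 133 peaks at 2.08 per Mb (1.74 to 2.46), and its other peaks were also the densest of any chromosome, at 4.19 per Mb of the remaining sequence. Chromosomes 12, 5 and 8 followed with 1.48, 1.42 and 1.40 per Mb, and their intervals overlapped. Apart from chromosome 19, the low densities were on chromosome 16 with 4 peaks (0.116 per Mb), chromosome 22 with 4 (0.180), chromosome X with 19 (0.275) and chromosome 13 with 25 (0.384). Far sequence here includes centromeres and acrocentric short arms. With empty gaps of 5 Mb or more left out, the densities were 0.167 (0.0454 to 0.427) on chromosome 16, 0.336 (0.0915 to 0.860) on 22 and 0.529 (0.342 to 0.780) on 13, and that of X did not move. The intervals of chromosomes 16, 22 and X then overlapped one another, and that of 22 also held the 0.544 of chromosome 21. Chromosome 16, chromosome X and chromosome 13 were also low for the other peaks, at 0.841, 0.656 and 1.36 per Mb.

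Chromosome 19 had 143 peaks and no far peak, in 7.83 Mb of far sequence, where a count of 0 allows up to 0.471 per Mb. Chromosome 18 had the largest share of far peaks among its own, 33 of 108 (30.6%, 22.1 to 40.2%). MDA-MB-231 carries chromosome gains and losses, and copy number was not analysed here. Its part in these densities was not tested.

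**Figure D2:**
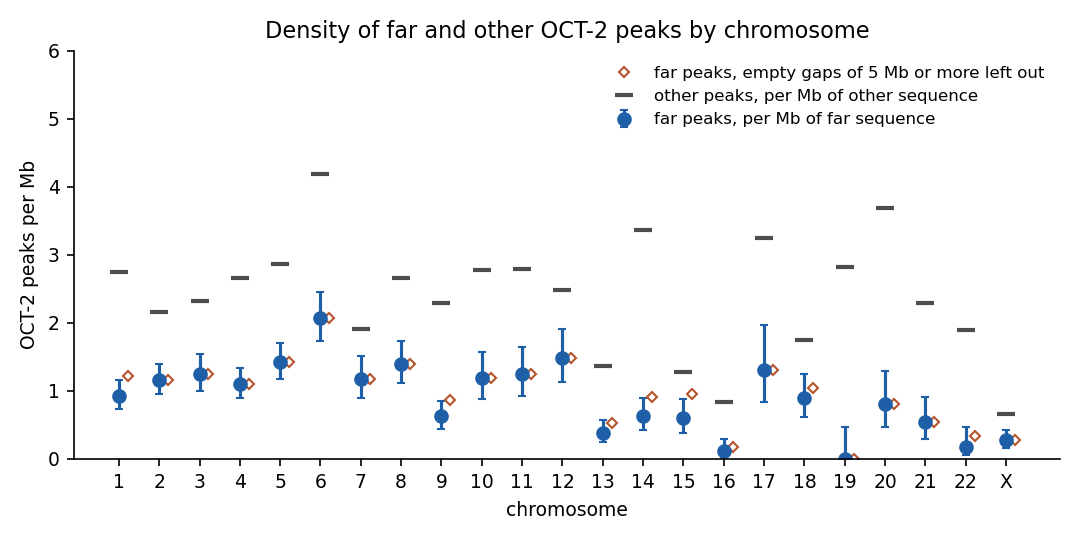
Far peaks per Mb of far sequence on each chromosome (blue circles, exact Poisson 95% intervals) the same with empty gaps of 5 Mb or more left out (open diamonds), and all other OCT-2 peaks per Mb of the remaining sequence (dashes). Chromosome 6 is the highest for both, at 2.08 and 4.19 per Mb, and chromosome 19 has no far peak.

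Gaps of 1 Mb or more between protein-coding gene bodies were taken as gene deserts. There were 326, with a total length of 724 Mb, and 405 far peaks (35.3%, 32.6 to 38.2%) lay in them. Deserts took up 59.5% of the far sequence, so within far sequence the density was 0.587 per Mb (0.532 to 0.648) in deserts and 1.58 (1.47 to 1.70) outside. A far peak was present in 158 deserts (48.5%) and none in 168; 57 held 1, 20 held 5 or more and 2 held 10 or more. Length did not separate empty from occupied deserts: the medians were 1.53 and 1.62 Mb. The 10 longest deserts, of 5.59 to 22.4 Mb, held 2 far peaks in all. However, they are stretches around centromeres and on the short arms of acrocentric chromosomes, where much of the sequence is repeats or assembly gaps that limit peak calling. Of these 10, 4 ended at a gene listed with the coordinates of another contig. Without gaps of 5 Mb or more that hold no gene and no peak, deserts took up 55.2% of far sequence, at 0.701 far peaks per Mb (0.634 to 0.773). The 20 fullest deserts held 127 far peaks (11.1% of all).

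The fullest desert lay on chromosome 6 between EYS, a retinal photoreceptor protein, and ADGRB3, an adhesion receptor of the brain. Its 2.93 Mb held 12 far peaks, at gaps of 18.8 to 489 kb with a median of 241 kb, and 1 of them lay in a noncoding gene. The next, also on chromosome 6, ran for 1.96 Mb from SLC35B3, a Golgi nucleotide-sulfate transporter, to TFAP2A, the AP-2 alpha transcription factor of neural crest and epithelia. It held 10 far peaks and a superenhancer. The desert between AGA, a lysosomal hydrolase, and TENM3, a teneurin adhesion protein, spanned 4.01 Mb on chromosome 4 and held 9, spread over 3.46 Mb.

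A pair of deserts held 8 each. That between IGFBP3, which binds insulin-like growth factors, and TNS3, a tensin of focal adhesions, was 1.35 Mb long on chromosome 7, at 5.91 far peaks per Mb (2.55 to 11.6). That between RFPL4B and MARCKS, a membrane-bound substrate of protein kinase C, was 1.51 Mb on chromosome 6, and 7 of its 8 far peaks lay within 10 kb of a noncoding gene, against 1 of 12 in the EYS to ADGRB3 desert. The 5 fullest deserts had been ranked by this count, so their densities describe them and carry no test.

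Deserts that held a superenhancer somewhere along their length had more far peaks. The 26 of them held 76 far peaks outside the superenhancers, 1.98 per Mb of desert (1.56 to 2.48), and the 300 without one held 329, 0.481 per Mb (0.431 to 0.536). The former were all under 5 Mb long. Among deserts under 2 Mb the densities were 2.35 (1.84 to 2.95) in 24 with a superenhancer and 0.759 (0.659 to 0.869) in 198 without, and a far peak was present in 21 of the 24 and 86 of the 198. The intervals do not overlap, and distance to genes was not matched beyond the limit on length.

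**Figure D3:**
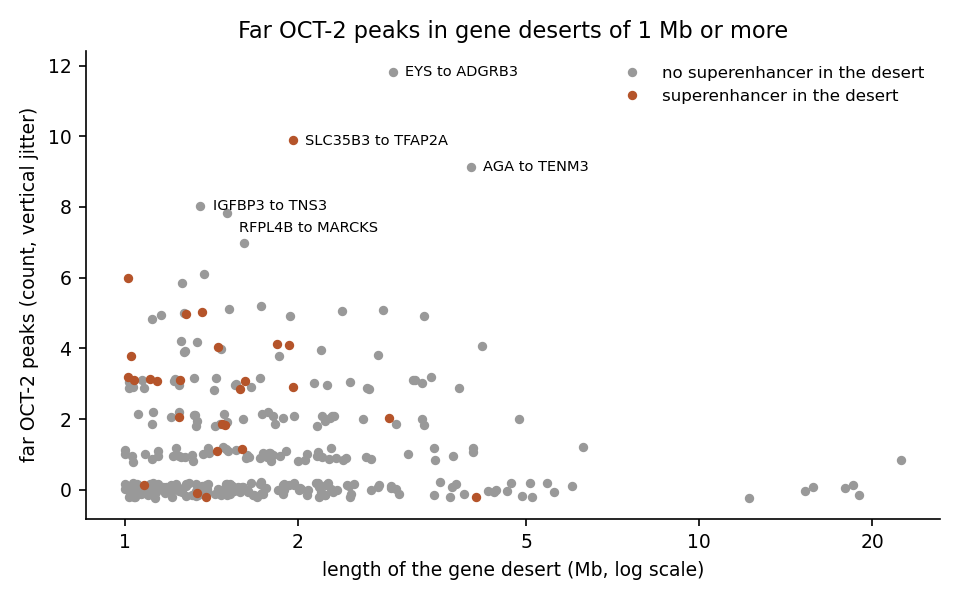
Number of far peaks (vertical axis, with jitter so that equal counts do not overlap) in each of 326 gene deserts against its length in Mb (horizontal axis, log scale); orange points hold a superenhancer, grey points none, and the 5 fullest deserts carry the names of their flanking genes. The fullest, with 12, is 2.93 Mb long, while the 10 longest, around centromeres and on acrocentric short arms with assembly gaps, hold 2 far peaks in all.

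Counted among themselves, far peaks were mostly solitary. When those at most 50 kb apart were joined, 790 had no other far peak so near and 356 (31.1%, 28.4 to 33.8%) fell into 159 clusters. Of these clusters, 132 were pairs, 19 held 3, 5 held 4 and 3 held 5. Peaks of the other classes were not counted as neighbours. Joined in the same way within their own class, 23.6% of intergenic peaks within 50 kb of a gene, 28.5% of gene body peaks and 70.2% of superenhancer peaks were in clusters. With all classes joined together, 40.3% of all peaks were in clusters. The median gap between neighbouring far peaks on a chromosome was 600.2 kb, and 54 neighbours were under 10 kb apart. The closest pair, 0.213 kb apart, lay on chromosome 6, where KCNQ5, a potassium channel, was the nearest protein-coding gene and its divergent transcript KCNQ5-DT the nearest noncoding one.

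The 3 clusters of 5 far peaks differed in span and surroundings. The densest covered 60.8 kb at chr6:16849519-16910338, between ATXN1, the ataxin 1 gene, and STMND1, with no noncoding gene within its span and a superenhancer 78.1 kb away. That at chr13:79936587-80040973 covered 104 kb between NDFIP2, an adaptor of NEDD4-family ubiquitin ligases, and SPRY2, a feedback inhibitor of receptor tyrosine kinases, 295 kb from SPRY2. LINC01080 lay within its span, and the nearest superenhancer lay 34643 kb away. That at chr6:12483751-12638242 covered 154 kb between EDN1, the endothelin 1 gene, and PHACTR1, a regulator of actin and protein phosphatase 1, with LINC02530 within its span.

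All 5 clusters of 4 had spans between 62.1 and 98.5 kb. On chromosome 5 they lay between RPS23 and TMEM167A, between ZNF608 and GRAMD2B, and between ACTBL2 and PLK2, a polo-like kinase. The others lay between TRPS1, a GATA-type repressor, and EIF3H on chromosome 8, and between CYRIA and RAD51AP2 on chromosome 2. The noncoding genes within their spans were LOC124901019 for the RPS23 cluster, LINC02240 and LOC124901056 for the ZNF608 cluster and LOC102723447 for the TRPS1 cluster. The ACTBL2 and CYRIA clusters spanned none, although the last peak of the ACTBL2 cluster lay 0.427 kb from LINC02225, while LINC01866 was 59.4 kb from the nearest peak of the CYRIA cluster. Only the ZNF608 cluster, with 3 of 4 peaks, and the TRPS1 cluster, with 1 of 4, had peaks inside a noncoding gene among these 8. Of all 159 clusters, 17 lay within 100 kb of a superenhancer.

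**Figure D4:**
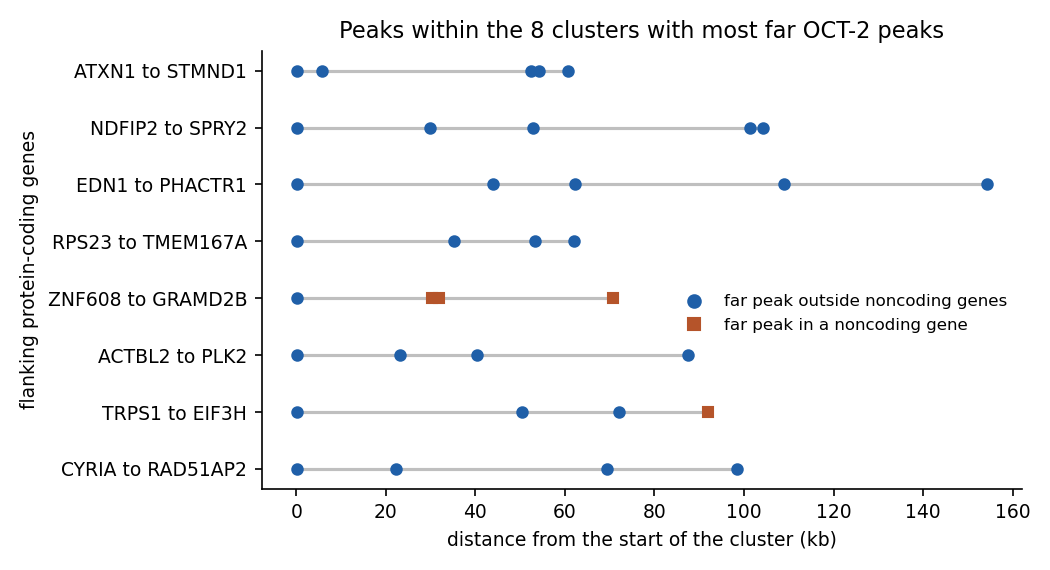
Far peaks in the 8 clusters that hold most of them, each row a cluster named by its flanking protein-coding genes, with the distance from the cluster's start in kb on the horizontal axis; orange squares lie inside a noncoding gene, blue circles do not. The top 3 rows hold 5 peaks each over 60.8, 104 and 154 kb, and the other rows hold 4.

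The most isolated far peak lay on chromosome 1 at 124199285 to 124199522, 2736 kb from LINC02798, which RefSeq types as protein-coding, and 19703 kb from the histone gene H3-7, in the gene-free stretch around the centromere. Its width of 238 bp is the smallest in the list, and repeats and assembly gaps in such stretches limit peak calling, as said above. The next lay 1957 kb from PCDH7, a protocadherin, in the desert toward ARAP2 on chromosome 4. Among the 8 most distant, 3 lay between AGA and TENM3, at 1668, 1784 and 1852 kb from the nearer gene. Another, on chromosome 18 between LOC105372073 and PIK3C3, a phosphatidylinositol 3-kinase of autophagy, lay 1850 kb from the former and inside the lncRNA MIR924HG, the only 1 of the 8 inside a noncoding gene. The remaining 2 lay between MAT2B and TENM2 on chromosome 5 (1611 kb) and between ZEB2, a repressor of epithelial genes, and ACVR2A, an activin receptor, on chromosome 2 (1464 kb).

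Many far peaks lay in or beside a noncoding gene, which the choice of far peaks did not use. A noncoding gene body held 367 far peaks (32.0%, 29.3 to 34.8%), and 517 (45.1%, 42.2 to 48.0%) lay within 10 kb of one. The share inside was above that of intergenic peaks within 50 kb of a gene (23.5%, 21.2 to 26.05%) and of gene body peaks (9.36%). How much of the sequence of each other class noncoding genes cover was not measured, so these shares are not set against equal coverage. At 10 kb the intervals of far peaks, intergenic peaks within 50 kb (42.2%, 39.4 to 45.1%) and superenhancer peaks (44.0%, 40.8 to 47.3%) overlapped. At the other end, 338 far peaks (29.5%) had no noncoding gene within 50 kb, and 219 had no gene of any type, pseudogenes included.

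The far sequence itself gives a reference for these shares. Noncoding gene bodies took up 21.4% of it and held far peaks at 1.48 per Mb (1.33 to 1.64), against 0.855 (0.796 to 0.917) in the rest. The rest includes more of the sequence farthest from genes, so the values were also taken within ranges of distance, with long empty gaps left out. Inside and outside noncoding genes they were 1.99 (1.62 to 2.42) and 1.52 (1.34 to 1.72) per Mb at 50 to 100 kb, and 1.64 (1.33 to 2.00) and 1.32 (1.16 to 1.505) at 100 to 200 kb. The densities were 1.4999 (1.25 to 1.78) inside and 0.865 (0.748 to 0.995) outside at 200 to 500 kb. At 500 to 1000 kb they were 0.843 (0.580 to 1.18) and 0.564 (0.449 to 0.700). The value was higher inside noncoding genes in all 4 ranges, and the intervals were apart only at 200 to 500 kb. Over 1000 kb from a gene, 5 far peaks lay inside noncoding genes and 27 outside, at 0.439 and 0.288 per Mb with overlapping intervals.

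**Figure D5:**
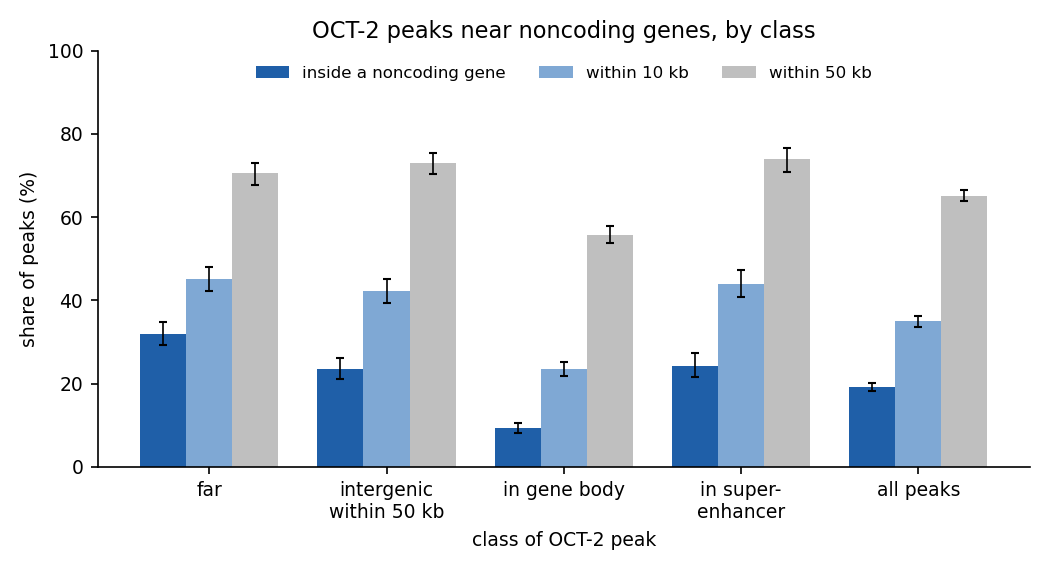
Share of OCT-2 peaks (vertical axis, %) that lie inside a noncoding gene, within 10 kb of one or within 50 kb of one, for far peaks, the 3 other classes and all peaks; bars start at 0 and carry exact 95% binomial intervals. Far peaks have the highest share inside a noncoding gene, 32.0%, and at 10 kb their 45.1% is close to the 42.2% and 44.0% of intergenic and superenhancer peaks. The classes are not matched for how much of their sequence noncoding genes cover.

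Nearly all of these genes were lncRNAs, the nearest noncoding gene for 505 of the 517 far peaks within 10 kb. Of the others, 6 were next to a microRNA, 2 to a tRNA, 2 to a small nucleolar RNA and 1 each to another small RNA and a Y RNA. In all, 331 lncRNA bodies held a far peak and 57 held 2 or more. They had a median length of 103 kb, against 12.8 kb for the 5358 lncRNA genes that lay over 50 kb from protein-coding genes, and a longer gene offers more sequence for a peak to fall in. MIR3681HG, on chromosome 2 beside TRIB2, held 5 in 571 kb, and LOC643339 on chromosome 12 held 4 in 374 kb. ZMIZ1-AS1, antisense by name to the gene of a PIAS-like coactivator, held 3 in 124 kb, all in 1 cluster of 17.9 kb. ADAMTS9-AS2 and CFAP20DC-DT on chromosome 3 held 3 each.

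Some far peaks stood at the ends of noncoding genes. There were 60 (5.24%) within 1 kb of an end of 64 such genes, and where the strand was known 25 were at the start and 13 at the end. How much of the far sequence lies within 1 kb of such an end was not measured, so this share has no reference. Counted from the starts given by promoter windows, 26 of the 1065 far peaks off chromosome 8 (2.44%, 1.60 to 3.56%) lay within 1 kb of an lncRNA start. That was below the 4.74% (3.58 to 6.14%) of intergenic peaks within 50 kb of a gene, with intervals barely apart. The interval of far peaks overlapped those of superenhancer peaks (4.45%, 3.17 to 6.06%) and gene body peaks (2.79%, 2.16 to 3.54%). How many lncRNA starts the sequence of each class holds was not measured, so these shares are not set against equal opportunity. The sequences printed above came from the far peaks within 1 kb of an lncRNA start.

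By the order of distance to an end, far peaks covered the starts of LINC02695, LOC100507006, LOC105379171, LOC107986629, LOC107987110 and LOC124901783, and the end of LINC02028. An edge of LOC101927413, LOC130494219 and RNY5 was also covered, and as no strand was known for these 3 it may be the start or the end. RNY5 encodes a Y RNA, a small RNA bound by the Ro60 protein, and spans 84 bp on chromosome 7. At 26 to 152 bp from an end, inside or outside the gene, were peaks at LOC124904264, LINC02577, LOC101927822, SLEAR, LOC124902923, LINC02205, LINC01910, LOC124901884, LINC02254 and LOC105378106. LINC02205, 1 of the 2 with an exact octamer, lay 112 bp from its peak and 148 kb from the nearest protein-coding gene, UACA.

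MicroRNA hairpins within 10 kb of far peaks were few. The closest were MIR3660 at 0.495 kb on chromosome 5, MIR4462 at 1.45 kb and MIR4643 at 1.98 kb on chromosome 6, MIR6080 at 2.51 kb on chromosome 17, MIR924 at 2.85 kb on chromosome 18 and MIR5702 at 3.14 kb on chromosome 2. MIR924 belongs to the peak inside MIR924HG described among the most isolated. A far peak at chromosome 6 lay 1.80 kb from the leucine tRNA gene TRL-CAA3-1, in a group of tRNA genes, with 3 other tRNA genes within 10 kb of it.

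Of 61 cancer-linked noncoding genes in the list used here and found in RefSeq, 9 had a far peak within 10 kb. Over all 22049 noncoding genes that share was 2.44% (537 genes), but length matters: it was 18.03% (178 of 987) for lncRNA genes over 100 kb long, and 7 of the 16 listed genes of that length had one (43.8%, 19.8 to 70.1%). That interval overlaps the one for long lncRNA genes (15.7 to 20.6%), and the list was chosen with results of these data known. The rule for far peaks also holds these reference shares down, since only 6074 of the 22049 noncoding genes lay over 50 kb from a protein-coding gene. The listed genes were not matched for that distance. MIR181A1HG, the host transcript of microRNAs of the miR-181 family, held 2, of which 1 lay 22.1 kb from MIR181A1. PVT1, a lncRNA beside MYC, CASC15, LINC00673, LUCAT1, SAMMSON, a lncRNA of melanoma, MIR99AHG, the host of miR-99a, and LINC01116 held 1 each. CASC8 lay 1.03 kb from a far peak.

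T-cell receptor loci entered the far peaks because RefSeq types their segments as V, D, J and C genes and not as protein-coding. Within 10 kb of the 601 antigen receptor segments there were 10 peaks, of which 7 were far peaks, 4 nearest to alpha chain segments, 2 to beta and 1 to delta. The alpha locus entry on chromosome 14, which encloses the delta locus and is 930.2 kb long, held 8 peaks, of which 6 were far. Of these, 1 overlapped TRAV40 and another lay 253 bp from TRAV13-2, both variable segments. The peak with the octamer at TRD-AS1, shown above, lay 5.60 kb from the delta diversity segment TRDD1. No far peak lay within 10 kb of an immunoglobulin segment; a peak of another class, intergenic within 50 kb of a gene, overlapped IGLV8OR8-1, a lambda variable segment on chromosome 8. Immunoglobulin genes are the textbook targets of OCT-2 in B cells, and 347 of the segments belong to the heavy, kappa and lambda groups.

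The 1146 far peaks had 730 different nearest protein-coding genes (3.66% of all), of which 474 had 1 far peak, 85 had 3 or more and 18 had 5 or more. ACTBL2, an actin-like gene, and ZNF608, a zinc finger gene, had 8 each. ADGRB3 and TRIB2, a pseudokinase that acts on ubiquitin-dependent decay, had 7 each. The 8 at ACTBL2 lay 96.4 to 407 kb from it and those at ZNF608 52.8 to 777 kb, so these counts include peaks deep in the neighbouring gaps.

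Because a gene beside a desert is nearest to much sequence, lists of genes were read against the share of far sequence nearest to their members. Secreted growth factors and morphogens (69 genes) were nearest to 28 far peaks (2.44%, 1.63 to 3.51%) and to 1.16% of far sequence, a density of 2.08 per Mb (1.38 to 3.00) against 0.989 over all far sequence. That interval also holds the 1.63 and 1.40 per Mb of all sequence at 50 to 100 kb and 100 to 200 kb from protein-coding genes. TGFB2, a transforming growth factor beta ligand, had 6, the closest 53.7 kb away, and DKK1, a secreted inhibitor of Wnt signalling, had 3 from 126 kb. In all 14 of the 69 had a far peak.

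Developmental transcription factors (81 genes) were nearest to 39 far peaks (3.40%) and 2.80% of far sequence, at 1.20 per Mb (0.855 to 1.64), an interval that holds the overall 0.989. SOX9, a factor of cartilage and many epithelia with long deserts on its flank, had 6, the closest at 118 kb. GATA3, a factor of luminal breast epithelium, had 4 from 291 kb, and NR2F2, ETS1, NR2F1 and ZEB2 had 3 each.

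Neural adhesion and guidance genes (68) were the nearest protein-coding genes to 6.43% of far sequence and to 27 far peaks (2.36%), at 0.362 per Mb (0.239 to 0.527). TENM3 had 3 and no other member more than 2. The 18 genes of the YAP, TAZ and TEAD pathway were nearest to 3 far peaks, at 1.51 per Mb (0.312 to 4.42), too few for an order. These lists were chosen with results of these data known, and the densities describe them without a test. Density falls with distance from genes, and the lists were not matched for distance. The secreted list had 13.5 Mb of far sequence and the neural list 74.5 Mb. The part of distance in the densities of the lists was not tested.

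Far peaks lay at a median of 2210 kb from the nearest superenhancer, against 1393 kb for intergenic peaks within 50 kb of a gene. Within 100 kb of one were 71 (6.20%, 4.87 to 7.75%), and 89 (7.43%, 6.01 to 9.06%) of the intergenic peaks, shares whose intervals overlap. Superenhancers called in 231Pa_Luc+GFP cells covered 15 far peaks (1.31%, 0.734 to 2.15%). The shares were 1.84% (1.15 to 2.77%) of intergenic peaks within 50 kb and 1.05% (0.684 to 1.53%) of gene body peaks, with overlapping intervals. By definition these classes and the far peaks leave out peaks in superenhancers of the OCT-2 cells. Of the peaks in those superenhancers, 69.1% also lay in a superenhancer of the GFP cells.

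By width the far peaks resembled the others. Their median was 268 bp, with the middle 50% between 248 and 307 bp, against 265.5 bp for intergenic peaks within 50 kb, 265 for gene body peaks and 275 for superenhancer peaks. At the smallest width in the list, 238 bp, were 105 far peaks (9.16%), beside 9.31% of all peaks. Only 3 of the 5736 peaks carried a name that ends in 3, read here as the number of merged calls though no source says so, and all 3 were far peaks. The names of the others end in 2.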

How the data were processed

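Per the labels' protocols, chromatin was precipitated with 5 µg of antibody and libraries were amplified with 15 PCR cycles. Tools named, per the submitters' processing notes, are HOMER, bedtools, Bowtie and Bowtie2 (version 2.2.2.6), with hg38 and hg19 as builds. The role of each, the thresholds of the calls and any use of input are not given in the sources used here. Each deposited list holds interval starts and ends and a name whose last number was read here as the number of merged calls, which no source states. The authors' lists used here, 3 in number, are named as hg38 and were read as GRCh38. The other 7 lists, of hg19 or of MDA-MB-436 cells, were not used, and no coordinates were converted. Of 5741 OCT-2 peaks, 5 on other contigs were left out.

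Genes came from the RefSeq table for GRCh38.p14 (19970 protein-coding and 22049 noncoding genes on the chromosomes used), without exons. The table lists 679 of its genes, 153 of them protein-coding, in stretches that restart within a chromosome, read as coordinates of other contigs. They were kept as listed, and values without them stand with the alternatives. Another 4 genes had no coordinates and were not used. Distances run between nearest edges, and 1 shared base counts as overlap. Noncoding means lncRNA and small RNA types, without pseudogenes and receptor segments. Far sequence is what remains of each chromosome, from 1 to the last gene or peak, after superenhancers and gene bodies extended by 50 kb. The share of it nearest to a list was read on a grid of 5 kb. Promoter windows on chromosome 8 were not used here. Shares carry exact (Clopper-Pearson) 95% intervals and densities exact Poisson ones. Code for distances, for clusters and for subtracting stretches of sequence was tested on simulated data (pandas 2.3.3 and scipy 1.17.1 in Python 3.11.15). The code of the 95% intervals was not part of that test.

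Members and lists were chosen with earlier results of these data known. Genes were named by rule: those flanking the 8 fullest clusters, the 8 most distant peaks and the 5 fullest deserts, up to 20 noncoding genes with a far peak within 1 kb of an end, list genes nearest to 3 or more far peaks and listed noncoding genes within 10 kb. The other named genes, the ranges of distance, the deserts split by superenhancer and length, the receptor segments and the sequences shown were chosen after values were seen.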

Additional observations from a re-analysis of the deposited data

How the results depend on the processing

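The number of far peaks was 1453 at more than 25 kb and 800 at more than 100 kb, 1147 by the middle of the peak, 1142 with superenhancers extended on both sides and 1131 without peaks in superenhancers of the GFP cells; only 3 had 3 or more merged calls, as the names were read. Without genes listed with the coordinates of other contigs, an alternative added after seeing the data, there were 1148 far peaks, 35.3% in deserts (320 in place of 326, since 7 deserts, 4 of the 10 longest among them, ended at such a gene) and 45.1% within 10 kb of a noncoding gene. Shares moved with their definitions: deserts of at least 0.5 Mb held 64.2% and of at least 2 Mb 10.7% of far peaks; gaps of at most 25 kb put 19.5% in clusters and of at most 100 kb 42.5%; and 32.0% overlapped a noncoding gene, 70.5% lay within 50 kb of one and 50.1% lay within 10 kb when pseudogenes were counted. The density was 0.845 per Mb in sequence over 100 kb away and 1.09 with empty gaps of 5 Mb or more left out (112 Mb, 9.63% of far sequence); the same choice, added after seeing the data for sequence over 1 Mb away, gave 0.304. With both flanking genes counted, developmental transcription factors flanked 6.11%, neural adhesion and guidance genes 6.02% and secreted factors 5.41% of far peaks. The median width was 266 bp outside clusters, and the octamer share was 16.7% in the middle 200 bp and 33.3% with 1 mismatch.

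No paired analysis was possible because the list merges both replicates and no result comes from a test. Leaving out a replicate was not run for the same reason. Sequence was read for 12 far peaks only, those that overlap a promoter window.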
